A study of Homo sapiens with 16 samples.

Results

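The 8 libraries described here compare polysomal with total RNA in MOLM13 cells edited with a guide against YBX1, and they are 8 of the 16 libraries of the series. They were taken by their labels, as 4 polysomal sgYBX1 and 4 total sgYBX1 libraries. The cells were MOLM13, a human line of acute myeloid leukemia with a KMT2A fusion, and carried Cas9 from a lentivirus under blasticidin. Polysomal sgYBX1 and total sgYBX1 libraries came from cells that received guide sgRNA1 against YBX1 in the pUSEPR vector. Polysomal sgLUC and total sgLUC libraries, 4 each, came from cells with a non-targeting guide in the same vector. All 4 groups were kept in puromycin and lysed at day 14 after transduction. In the study's fractionation method, living cells receive cycloheximide, which is also in the wash and the lysis buffer. Lysates were spun through sucrose gradients, and the heavy fractions, which hold mRNAs carrying several ribosomes, were pooled as polysomal RNA. Poly(A)-selected libraries were sequenced in pairs. The sgYBX1 cells were a pool selected for the vector and not a clone, so a change in all cells and a change in the edited share of cells cannot be told apart. The study describes 4 replicate cultures for the fractionation, and whether they were transduced separately is not given in the labels, so p-values measure the spread between these samples. The study's methods name TRIZOL for polysomal fractions and a column kit for cultured cells, while the labels name TRIZOL for both, so extraction and fraction cannot be told apart.

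The product of YBX1 has a cold-shock domain, coats mRNAs and has long been studied as a packaging protein of untranslated messages. An mRNA sediments with polysomes when several ribosomes translate it at the same time. The length of the reading frame, start sequences and 3′ UTR elements can all change how much of a message sediments there. Messages of ribosomal proteins and of many elongation factors start with an oligopyrimidine tract at the cap, through which growth signals control their initiation. Many unstable messages carry AUUUA elements in the 3′ UTR. Levels below are TMM-scaled CPM, counts divided by the library total times its TMM factor, so libraries do not sum to a common total. Over all tested genes these levels summed to 1390000 to 1500000 CPM in polysomal and 700800 to 714800 CPM in total sgYBX1 libraries. A fold change is polysomal over total on the log2 scale with its SE. Because the scaling rests on relative counts, a fold change ranks a message against other messages and gives no share of its molecules on ribosomes.

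Sequences from messages that stood at the ends of the comparison are shown first. The starts of 4 oligopyrimidine messages are given from RefSeq (GRCh38.p14) with the tract in capitals, because they were found on both sides.
RPLP2 start, chr11:809967-809986, plus strand: CCTTTTCCTCCCTgtcgcca
NAP1L1 start, chr12:76084666-76084685, minus strand: CTTTTTTagcgccatctgct
EEF2 start, chr19:3985444-3985463, minus strand: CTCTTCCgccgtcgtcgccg
TPT1 start, chr13:45341164-45341183, minus strand: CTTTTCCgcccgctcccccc

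The richest 30-base purine windows within coding exons (GRCh38) are given with purines in capitals for 3 messages that were higher on polysomes and 3 that were lower, because the most purine-rich coding sequences had the highest median fold changes, as described further on.
PTMA, chr2:231711932-231711961, plus strand: GAAGAAGAGGAAGAAGGtGGGGAGGAAGAG
HSP90AA1, chr14:102084912-102084941, minus strand: AAAGAAGAAGAAAAAGAAAAAGAAGAGAAA
EIF5B, chr2:99360320-99360349, plus strand: AAAAGGGAAAAAGAAAAAAGAGAAAAAAAA
TMEM30A, chr6:75284604-75284633, minus strand: GAtGAActAtAAcGcGAAGGAtGAAGtGGA
IARS, chr9:92274456-92274485, minus strand: AActAtGtGAAGGAAGAAGAAGGcAcAGGG
PDIA6, chr2:10790775-10790804, minus strand: cAGAAGtAAAAGAGcAGAcGAAAGGAAAAG
PTMA had 29 purines in its window and HSP90AA1 and EIF5B had 30, against 22 in TMEM30A, 24 in IARS and 26 in PDIA6. PTMA, HSP90AA1 and EIF5B were seen before purines were chosen as a feature, so this contrast is an illustration and no support. Of messages still higher on polysomes, HIST1H4C and C4orf48 had 41 and 36 purines in the richest 60 coding bases, and KNOP1 and HMGN5 had 52 and 56. IARS and PDIA6 had 43 and 44, near the median of 44 in genes of at least 5 CPM.

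An AUUUA element (ATTTA in DNA letters, in capitals) is given for 2 messages that were low on polysomes.
HIF1A, chr14:61747138-61747158, plus strand: agcagtctATTTAtattttct
BCL2L11, chr2:111164886-111164906, plus strand: ttgtaaatATTTAcgtacctt
HIF1A held 8 such elements and BCL2L11 8. Of the messages shown above, NAP1L1, which was higher on polysomes, held 28, and IARS and PDIA6, which were lower, held 2 and 1.

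Libraries held 46630987 to 55380275 counts for polysomal sgYBX1 and 47739767 to 60704751 for total sgYBX1. The first principal component separated the fractions and held 97.7% of the variance of the 8 libraries. Replicates varied more on polysomes. The biological coefficient of variation was 0.149 in polysomal and 0.0378 in total sgYBX1 RNA (0.22 and 0.0562 in sgLUC RNA). The 100 most counted genes took 30.3 to 31.9% of polysomal counts and 18.4 to 18.9% of total counts, and TMM factors were 0.667 to 0.719 in polysomal and 1.399 to 1.427 in total libraries. The median of all tested genes lay at −0.10 with TMM and at −1.15 with library totals in place of TMM factors. Directions of moderate changes therefore rest on the scaling. Named genes and class medians that turned are given with their value, and medians of feature groups fell by about the same 1.05 on the log2 scale. Of 10 myeloid leukemia markers, 9 reached 1 CPM in polysomal and 10 in total RNA. Their summed unscaled level was 747 to 870 CPM in polysomal against 3679 to 3756 CPM in total libraries. Of 12 erythroid and megakaryocyte markers 0 reached 1 CPM in either fraction, and summed lymphoid markers held 68.2 to 84.3 CPM in polysomal and 33.7 to 39.8 CPM in total RNA.

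YBX1 itself, the targeted gene (Entrez 4904, chromosome 1, 42682427 to 42702349, GRCh38), had 644, 665, 647 and 623 CPM in polysomal RNA and 512, 518, 496 and 551 CPM in total RNA. The groups did not overlap, and the message was higher on polysomes by a log2 fold change of 0.31 ± 0.05, adjusted p = 5.6e-05 (edgeR quasi-likelihood test), although it turned to −0.74 with library totals. Its level was 73.7% of the sgLUC level in polysomal and 58.6% in total RNA (p = 0.0286 for either fraction by a two-sided exact permutation test, which cannot go lower with 4 libraries a group). Edited alleles may still be transcribed. The study checked YBX1 protein by Western blot in the fractionated cultures, and no protein value was used here.

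Polysomal and total RNA of sgYBX1 cells differed for most genes. Of 12517 tested genes, 5081 (40.6%) were higher and 5505 (44.0%) were lower on polysomes (edgeR quasi-likelihood test, adjusted p under 0.05), and 1931 did not pass. By over 2-fold, 3490 genes (27.9%) were higher and 3664 (29.3%) were lower. Of the tested genes, 1969 had a mean under 1 CPM in total sgYBX1 RNA and could pass the filter through polysomal values alone. Among the 10548 with at least 1 CPM there, 25.3% were higher and 32.4% lower by over 2-fold, with a median of −0.23. Class counts below, and the counts and medians of groups by transcript features, include such scarce genes unless stated. Feature groups were not read again at 1 CPM in total RNA. With library totals the split was 2726 higher and 8158 lower. The 4 polysomal and the 4 total values did not overlap for 10223 genes (81.7%). Counts of classes below are to be read against these shares.

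The largest fold changes among protein-coding genes of at least 5 CPM ran from 6.21 in SCUBE3, a secreted glycoprotein gene, to −5.89 in DDI2 and TMEM30A. HIST1H4C, which encodes histone H4, had 345, 315, 239 and 288 CPM in polysomal RNA and 5.13, 4.37, 4.65 and 3.803 CPM in total RNA, a fold change of 6.04 ± 0.12, adjusted p = 2.9e-16. KNOP1, a lysine-rich nucleolar protein gene, had 1239, 988, 1250 and 1343 CPM in polysomal RNA and 30.4, 29.02, 25.5 and 29.6 CPM in total RNA (5.40 ± 0.10, adjusted p = 1.7e-16). All polysomal values of both genes lay far above the total values. C4orf48 had 5.62, as did SLC16A4, which encodes a member of the monocarboxylate transporter family. TMEM30A, the chaperone subunit of phospholipid flippases, had 2.88, 3.72, 5.78 and 1.77 CPM in polysomal RNA and 212, 210.4, 211 and 207 CPM in total RNA (−5.89 ± 0.19, adjusted p = 2.6e-14), so every polysomal library held under 6 CPM. HIF1A, the oxygen-regulated transcription factor gene, had 0.347, 0.778, 0.703 and 0.642 CPM in polysomal RNA and 29.6, 28.9, 29.7 and 27.3 CPM in total RNA (−5.52 ± 0.15, adjusted p = 3.7e-15). HOXA9, a homeobox gene that KMT2A fusions keep on, had 0.253, 0.276, 0.703 and 0.642 CPM in polysomal RNA and 18.5, 18.5, 19.1 and 20.3 CPM in total RNA (−5.38 ± 0.20, adjusted p = 1.9e-13). DDI2, KLF13 (−5.57) and PCDHGC3 (−5.67) completed the low end. DDI2 overlaps RSC1A1 on its own strand, PCDHGC3 shares exons with its gene cluster, and HIF1A and HOXA9 overlap noncoding genes. Genes named below that overlap another gene on the other strand include ATP5ME (MYL5), EIF5B (REV1), SDHD (TIMM8B), UTP4 (CHTF8), PDIA6 (ATP6V1C2), TYMS (ENOSF1), MRPL49 (FAU) and TCP1 (ACAT2). Whether reads were counted by strand is not given in the sources used here, so the values of all these genes are uncertain. Of genes over 8-fold higher on polysomes 31.7% overlapped a gene on the other strand and of those over 8-fold lower 38%, beside 33.1% of all genes of at least 5 CPM.

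**Figure D1:**
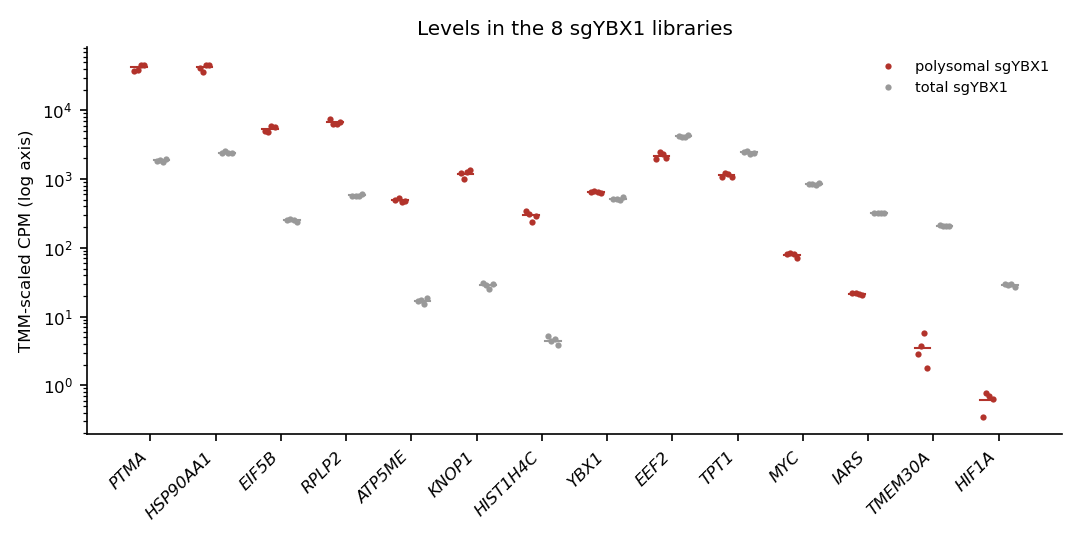
TMM-scaled CPM (log axis) of 14 named messages in the 4 polysomal and 4 total sgYBX1 libraries; each point is a library and each bar a group mean. PTMA to HIST1H4C lie higher on polysomes and EEF2 to HIF1A lie lower, with no overlap of the groups for any of the 14 messages.

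Replication-dependent histones were too scarce in total RNA to be read as a class. Their proteins package newly copied DNA, and their messages end in a stem-loop in place of a poly(A) tail, so poly(A) selection leaves the polyadenylated share of the messages. Of 70 counted members, 50 passed the filter on low counts, and 44 of these had a mean under 1 CPM in total sgYBX1 RNA. A member could pass through its polysomal values alone, so the class count, its median of 2.86 and its rank among classes are no result. Of the 6 members with at least 1 CPM in total RNA, 3 were higher and 0 lower by over 2-fold, with a median of 0.77 (−0.28 with library totals), beside −0.23 for all genes at that level. HIST1H2BK, the lowest member of at least 10 CPM, had 19.97, 17.1, 17.1 and 14.7 CPM in polysomal RNA and 17.9, 18.2, 18.8 and 18.6 CPM in total RNA and did not pass the test (−0.09 ± 0.09, adjusted p = 0.348).

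**Figure D2:**
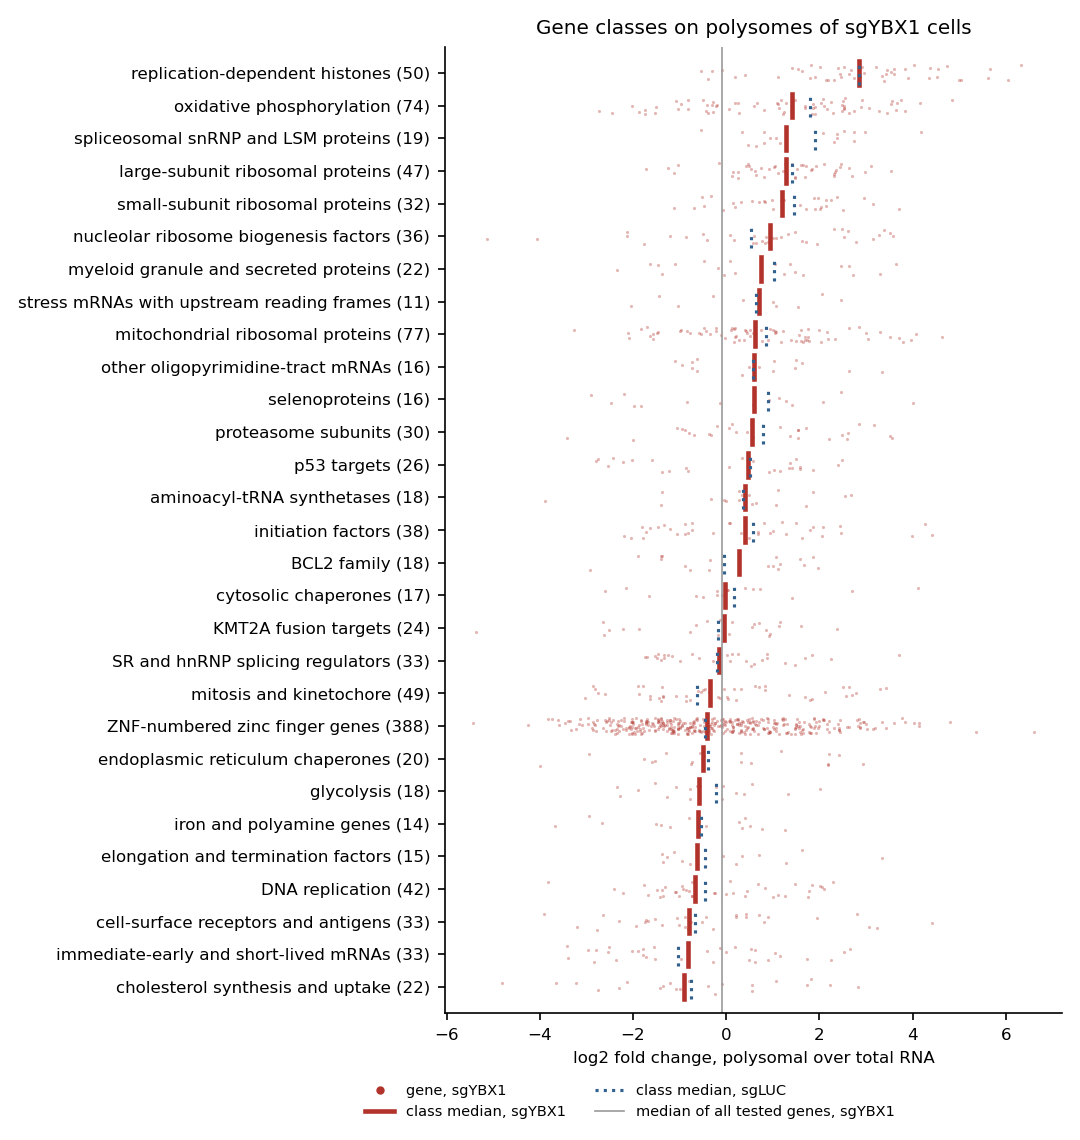
Log2 fold change of polysomal over total RNA for the tested members of 29 gene classes (number in brackets) in sgYBX1 cells; points are genes, thick bars are class medians in sgYBX1 cells, dotted bars are class medians in sgLUC cells and the grey line is the median of all tested genes. Medians of classes other than the scarce histones run from 1.40 for oxidative phosphorylation to −0.90 for cholesterol genes, and members of most classes lie on both sides.

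Ribosomal protein messages were mostly on the high side. Among large-subunit ribosomal protein genes, 29 of 47 were higher and 4 lower by over 2-fold (median 1.29). Among small-subunit genes 17 of 32 were higher and 1 lower (median 1.20). Of the 29 small-subunit genes with at least 1 CPM in total RNA, 14 were higher and 1 lower, with a median of 0.995 (−0.05 with library totals). RPLP2, an acidic stalk protein of the large subunit, had 7463, 6264, 6348 and 6716 CPM in polysomal RNA and 574, 569, 575 and 602 CPM in total RNA (3.53 ± 0.07, adjusted p = 2.2e-16). RPL30 was the other extreme of the large subunit, with 396, 369, 338 and 338 CPM in polysomal RNA and 1212, 1208, 1164 and 1190 CPM in total RNA (−1.73 ± 0.06, adjusted p = 1.4e-13), and its 4 polysomal values lay below all total values. In the small subunit RPS28 had 3.71, RPS15 2.03, RPS15A −0.69 and RPS29 −1.12, all past the test. Most ribosomal protein genes have processed copies elsewhere in the genome, and how shared reads were counted is not given in the sources used here.

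A start tract of 5 or more pyrimidines, beginning with C, was annotated for 28 of 38 large-subunit genes (73.7%) and 19 of 25 small-subunit genes (76.0%) with a RefSeq start, against 764 of 10243 tested genes (7.46%). Large-subunit genes had a median fold change of 1.57 with the tract and 0.20 without, and small-subunit genes 1.89 with and 0.91 without. Over all tested genes the medians were −0.03 with a tract and −0.11 without. Among 16 other oligopyrimidine messages, 7 were higher and 1 lower by over 2-fold, with a median of 0.60 that turned to −0.45 with library totals. NAP1L1, a histone chaperone gene whose start is shown above, had 2743, 2430, 2927 and 2958 CPM in polysomal RNA and 448, 454, 437 and 429 CPM in total RNA (2.64 ± 0.07, adjusted p = 3.0e-15). TPT1, which encodes the tumor protein TCTP, had 1070, 1235, 1186 and 1083 CPM in polysomal RNA and 2498, 2523, 2338 and 2420 CPM in total RNA (−1.10 ± 0.06, adjusted p = 4.3e-11). EEF2, the translocase of elongation, had 1965, 2510, 2286 and 2040 CPM in polysomal RNA and 4303, 4088, 4116 and 4385 CPM in total RNA (−0.94 ± 0.07, adjusted p = 3.3e-09). NAP1L1, TPT1 and EEF2 start with tracts of the same length, 7 bases, and lay on opposite sides.

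Initiation factors were split, with 13 of 38 higher and 10 lower by over 2-fold and a median of 0.41 (−0.64 with library totals). EIF5B, the GTPase that joins the ribosomal subunits, had 5006, 4877, 5847 and 5745 CPM in polysomal RNA and 256, 259, 254 and 241 CPM in total RNA (4.41 ± 0.08, adjusted p = 1.1e-16). EIF4B, which aids the helicase of the cap complex, had 280.1, 318, 349.9 and 299.5 CPM in polysomal RNA and 532, 527, 512 and 517 CPM in total RNA (−0.74 ± 0.07, adjusted p = 1.8e-08). The initiation factor 3 subunit genes gave −0.28 for EIF3L (adjusted p = 0.00203), 0.32 for EIF3D (adjusted p = 0.0001, turned to −0.73 with library totals) and −2.19 for EIF3C, which has a near-identical copy that may share its reads. Among 15 elongation and termination factors 3 were higher and 4 lower by over 2-fold (median −0.62), and members of at least 10 CPM ran from 1.62 in EEF1G to −1.36 in HBS1L, a ribosome rescue factor. Aminoacyl-tRNA synthetases had a median of 0.41 (−0.64 with library totals), with 6 of 18 higher and 3 lower by over 2-fold. DARS, the aspartyl enzyme, lay at 2.67, whereas IARS, the isoleucyl enzyme, had 21.8, 22.2, 21.5 and 20.6 CPM in polysomal RNA and 319, 325, 319 and 316 CPM in total RNA (−3.89 ± 0.06, adjusted p = 6.6e-17).

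Nucleolar ribosome biogenesis factors had a median of 0.95 (−0.10 with library totals), with 17 of 36 higher and 6 lower by over 2-fold. DKC1, the pseudouridine synthase of small nucleolar RNPs, had 2353, 2207, 2652 and 2648 CPM in polysomal RNA and 208, 215, 202 and 205 CPM in total RNA (3.57 ± 0.07, adjusted p = 2.8e-16). UTP4, a subunit of the small-subunit processome, had 2.05, 0.678, 0.607 and 0.867 CPM in polysomal RNA and 37.98, 36.7, 34.4 and 35.9 CPM in total RNA (−5.13 ± 0.21, adjusted p = 7.7e-13), so the class spanned both ends. Spliceosomal snRNP and LSM genes were higher by over 2-fold in 12 of 19 members and lower in 0 (median 1.29), from 4.19 in SNRPB2 to −0.53 in LSM6. SR and hnRNP regulators of splicing were split, with 6 of 33 higher and 10 lower by over 2-fold (median −0.16), from 3.71 in SRSF11 to −1.75 in CLK4.

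Nuclear genes of mitochondrial respiration lay mostly on the high side and glycolytic and cholesterol genes had medians on the low side. Of 74 nuclear genes of oxidative phosphorylation 45 were higher and 10 lower by over 2-fold (median 1.40). ATP5ME, a membrane subunit of the ATP synthase, had 494, 525, 456 and 482 CPM in polysomal RNA and 16.9, 17.2, 15.2 and 18.6 CPM in total RNA (4.85 ± 0.08, adjusted p = 6.6e-17). SDHD, a membrane anchor of complex II, had 15.04, 15.1, 15.3 and 15.3 CPM in polysomal RNA and 101, 103, 97.3 and 99.4 CPM in total RNA (−2.72 ± 0.06, adjusted p = 5.2e-16). Mitochondrial ribosomal protein genes were higher by over 2-fold in 34 of 77 and lower in 10 (median 0.61, turned to −0.44 with library totals), and members of at least 10 CPM ran from 4.62 in MRPL23 to −2.10 in MRPL49. Glycolytic genes had 2 of 18 higher and 6 lower by over 2-fold (median −0.59), with TPI1 at 2.02 and HK2, the hexokinase of proliferating cells, at −2.34. Cholesterol synthesis and uptake had the lowest median, −0.90, with 5 of 22 higher and 10 lower by over 2-fold. MVD, an enzyme of this pathway, was on the high side at 2.82. Iron and polyamine genes had 1 of 14 higher and 6 lower by over 2-fold (median −0.61), with SMS, spermine synthase, at 1.26. IDH3B, a subunit of isocitrate dehydrogenase, had 121, 101, 92.5 and 90.8 CPM in polysomal RNA and 107, 110.5, 111 and 113 CPM in total RNA, overlapped and did not pass the test (−0.12 ± 0.08, adjusted p = 0.157).

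Short-lived messages had a median on the low side. Of 33 immediate-early and short-lived messages, 6 were higher and 15 lower by over 2-fold (median −0.82). MYC, the growth-promoting transcription factor, had 82.02, 84.7, 80.3 and 72.1 CPM in polysomal RNA and 853, 840.5, 814 and 882 CPM in total RNA. All polysomal values lay below all total values, a fold change of −3.41 ± 0.07, adjusted p = 2.1e-16. NFKBIA, the inhibitor of NF-κB, lay at 2.65. In the BCL2 family 7 of 18 were higher and 5 lower by over 2-fold, with a median of 0.27 that turned to −0.78 with library totals and to −0.52 among members of at least 5 CPM. BAX, which permeabilizes the mitochondrial outer membrane, had 1.87. BCL2L11 (BIM), which triggers that step, had 6.19, 4.72, 5.46 and 5.97 CPM in polysomal RNA and 42.3, 42.2, 42.03 and 41.3 CPM in total RNA (−2.91 ± 0.09, adjusted p = 1.8e-14). The survival genes MCL1 and BCL2 had −1.89 ± 0.06 and −0.78 ± 0.07, and the groups did not overlap for either. KMT2A fusion targets were split, with 4 of 24 higher and 6 lower by over 2-fold and a median of −0.04 that turned to 0.04 with median-of-ratios size factors. MEF2C, a myeloid transcription factor gene, lay at 2.38 and FLT3, a receptor tyrosine kinase gene, at −2.64. IGF2BP2, an RNA-binding protein gene named by the study, had 191, 198, 231 and 212 CPM in polysomal RNA and 114, 115, 114 and 114 CPM in total RNA (0.86 ± 0.06, adjusted p = 1.2e-09), which turned to −0.19 with library totals.

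Secreted and membrane proteins did not move together. Myeloid granule and secreted protein genes had 10 of 22 higher and 5 lower by over 2-fold (median 0.75, −0.30 with library totals). Of the 19 members with at least 1 CPM in total RNA, 8 were higher and 5 lower, with a median of 0.19 (−0.87 with library totals). TIMP1 lay at 2.63, whereas LYZ, lysozyme, had 245, 276, 249 and 235 CPM in polysomal RNA and 1257, 1304, 1278 and 1290 CPM in total RNA (−2.35 ± 0.06, adjusted p = 3.1e-15). Cell-surface receptors and antigens had 5 of 33 higher and 13 lower (median −0.81), and members of at least 10 CPM ran from 4.42 in LAIR1, an inhibitory receptor, to −3.2 in CSF2RB, the shared beta chain of cytokine receptors. Endoplasmic reticulum chaperones had 6 of 20 in each direction (median −0.49), with SDF2L1 at 2.93 and PDIA6, a disulfide isomerase, at −3.99. Selenoproteins had 6 of 16 higher and 5 lower (median 0.59, −0.46 with library totals), with SELENOS at 2.45 and SELENOF at −2.91.

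The remaining classes were mixed. Proteasome subunits had 14 of 30 higher and 3 lower by over 2-fold (median 0.55, −0.50 with library totals), with PSMD1 at 3.56 and PSMB7 at −3.42. Cytosolic chaperones had 3 of 17 in each direction (median −0.03, 0.04 with median-of-ratios size factors). HSP90AA1, the inducible cytosolic HSP90, had 41140, 36170, 45340 and 45700 CPM in polysomal RNA and 2403, 2525, 2366 and 2377 CPM in total RNA (4.12 ± 0.08, adjusted p = 2.3e-16), against −2.61 for TCP1, a subunit of the chaperonin that folds actin and tubulin. DNA replication genes had 11 of 42 higher and 13 lower (median −0.67), with POLD2 at 2.30 and TYMS, thymidylate synthase, at −3.82. Mitosis and kinetochore genes had 12 of 49 higher and 16 lower (median −0.35), from 3.43 in SPC24 to −3.04 in BUB1. Zinc finger genes with ZNF numbers had 91 of 388 higher and 145 lower (median −0.42), and members of at least 10 CPM ran from 4.81 in ZNF593 to −3.60 in ZNF664. Stress messages with upstream reading frames had 5 of 11 higher and 3 lower (median 0.69, −0.35 with library totals), with ATF5 at 2.47 and PPP1R15B at −2.03. Targets of p53 had 11 of 26 higher and 9 lower (median 0.46, −0.60 with library totals), with POLH at 2.49 and RRM2B at −2.76.

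Across 12436 tested genes with an annotated coding sequence, short reading frames stood higher on polysomes. In 8 groups of equal size, the median fold change was 0.74 for 24 to 201 codons, 0.42 for 201 to 292 and 0.08 for 292 to 376, and it was −0.54 for 1064 codons and more. In the shortest group 44.2% were higher and 16.8% lower by over 2-fold, and in the longest 21.5% were higher and 39.1% lower. These groups include genes scarce in total RNA that could pass the filter through polysomal values alone. Among genes of at least 5 CPM over both fractions, a mean that polysomal values alone can also reach, the shortest group had 0.75 and the longest −0.74. Spearman's rho across genes was −0.20, which describes genes that share libraries and is no test. RPL41, with the shortest coding sequence of genes of at least 50 CPM (25 codons), had 0.91 (−0.14 with library totals), and MACF1, a cytoskeletal linker with 7592 codons, had −1.56. The quartiles of neighbouring groups overlapped. In sgLUC cells the medians ran from 0.86 in the shortest to −0.76 in the longest group.

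The number of AUUUA elements in the 3′ UTR ran with lower polysomal levels. The letters ATTTA were counted on the transcript's strand alone, overlaps included. Genes with 0 elements (4354) had a median of 0.52, those with 1 to 2 had −0.12, those with 3 to 5 had −0.61, those with 6 to 10 had −0.83, and the 1205 genes with 11 or more had −0.91. By over 2-fold, 37.5% of genes with 0 elements were higher and 16.3% lower, against 19.7% and 47.8% of genes with 11 or more. Longer 3′ UTRs hold more elements. In 8 groups of equal size by 3′ UTR length the median was 0.71 in the shortest, −0.69 in the seventh and −0.48 in the longest group. The separate parts of length and elements were not tested. In sgLUC cells the median was 0.59 with 0 elements and −0.91 with 11 or more.

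**Figure D3:**
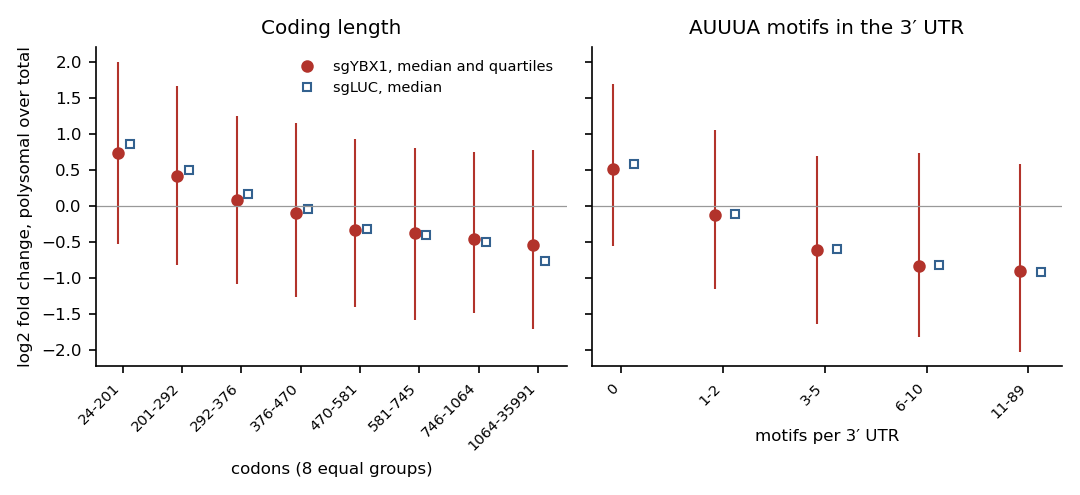
Median log2 fold change of polysomal over total RNA by coding length (left, 8 groups of equal size) and by AUUUA elements per 3′ UTR (right); filled points and lines are medians and quartiles in sgYBX1 cells, open squares are medians in sgLUC cells. The median in sgYBX1 cells is 0.74 for the shortest and −0.54 for the longest coding sequences, and 0.52 with 0 elements and −0.91 with 11 or more.

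Messages with purine-rich stretches in the coding sequence had high medians. This feature was chosen after the values of named genes such as PTMA, EIF5B and HSP90AA1 were seen. Genes were ordered by the purines (A or G) in the richest 60 coding bases. The 427 genes with 53 to 60 purines had a median of 1.70, with 59.0% higher and 10.3% lower by over 2-fold. The 1077 genes with 49 to 52 purines had 0.69, those with 45 to 48 had −0.31, those with 41 to 44 had −0.35 and those with 40 or fewer had 0.27. The relation was thus not a steady one, and the rank correlation across genes was 0.03 (genes are not independent replicates). With library totals the medians from the fewest to the most purines were −0.78, −1.40, −1.36, −0.36 and 0.65, so only the last stayed above 0. Longer coding sequences have more chances to hold such a stretch, so the groups were also read within 4 groups of equal size by coding length. With 53 or more purines the medians were 3.17, 2.07, 1.87 and 1.33 from the shortest to the longest coding sequences, and with 41 to 44 purines they were 0.23, −0.22, −0.57 and −0.84. By adenines in the richest 30 coding bases, in 8 groups of equal size, genes with 19 to 30 adenines had a median of 0.64 and those with 18 to 19 had −0.65. Genes with the fewest, 6 to 12, had 0.67 and the next group 0.28, and the rank correlation was −0.11. The part of adenine stretches in these values was not tested. In sgLUC cells the medians by purines, with TMM, were 0.43, −0.28, −0.39, 0.35 and 1.305 from the fewest to the most.

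PTMA, which encodes the acidic nuclear protein prothymosin alpha, had 37330, 39080, 45720 and 46250 CPM in polysomal RNA and 1863, 1912, 1800 and 1933 CPM in total RNA (4.49 ± 0.08, adjusted p = 1.5e-16), with 56 purines in its richest 60 bases. HMGN5, a nucleosome-binding protein gene with 56 purines, had 780.1, 722, 952 and 852 CPM in polysomal RNA and 21.6, 23.4, 21.2 and 21.4 CPM in total RNA (5.24 ± 0.09, adjusted p = 1.1e-16). SRSF11 (54 purines), PSMD1 (56) and NAP1L1 (53) were the highest members of at least 10 CPM in their classes. Highest members of other classes held fewer, among them BAX (39), MRPL23 (42), LAIR1 (43), MEF2C (43), ATF5 (44), DARS (45), EEF1G (48) and ATP5ME (51). The median was 44 in genes of at least 5 CPM, so the top of a class was not always purine-rich. EIF3D, with 55 purines, lay at 0.32 only. PTMA and HSP90AA1 have processed copies in the genome that may share reads.

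**Figure D4:**
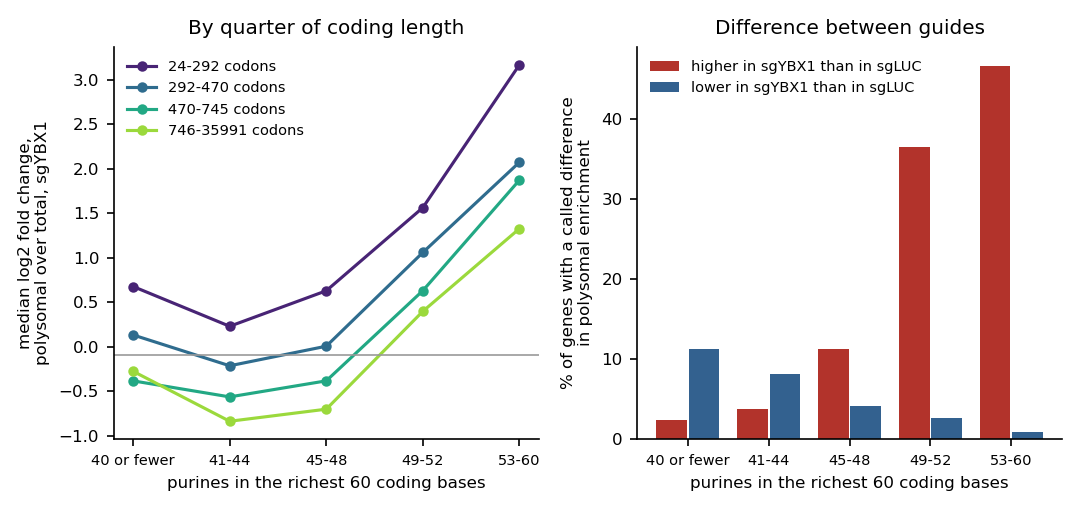
Left, median log2 fold change of polysomal over total RNA in sgYBX1 cells by purines in the richest 60 coding bases, 1 line for each of 4 groups of coding length, with the median of all tested genes in grey. Right, percent of genes in each purine group whose polysomal enrichment was called higher (red) or lower (blue) in sgYBX1 than in sgLUC cells; the red bars are 2.36% with 40 or fewer purines and 46.6% with 53 to 60.

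How far the enrichment differed between guides was asked by testing the difference of the polysomal enrichment between sgYBX1 and sgLUC cells in 1 model of all 16 libraries. Most genes had a like enrichment with both guides. Of the genes over 2-fold higher in sgYBX1 cells 3001 (86.0%) were also over 2-fold higher in sgLUC cells, and of those lower 3141 (85.7%). Across genes, the fold changes with both guides, which share no library, had r = 0.937. The difference was called higher in sgYBX1 cells for 1232 genes (9.84%) and lower for 863 (6.89%). Only 231 called genes had fold changes of opposite sign with the guides. The count of lower genes was 542 without total sgLUC replicate 3, 556, 562 and 543 without total sgYBX1 replicate 1, 2 or 4, and 1301 without polysomal sgLUC replicate 2. With library totals the counts were 677 higher and 2694 lower.

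Genes called higher in the difference took a larger share of the purine-rich groups. The shares were 2.36%, 3.81%, 11.3%, 36.5% and 46.6% from 40 or fewer to 53 to 60 purines, beside 9.84% of all tested genes. Without single libraries these shares ran, in the same order, from 1.18 to 3.75%, 2.46 to 5.74%, 8.45 to 16.1%, 31 to 40.2% and 40.6 to 53.7%. In the group with 40 or fewer purines the lowest share came without total sgYBX1 replicate 1 and the highest without polysomal sgLUC replicate 1, and with 41 to 44 purines the lowest came without total sgLUC replicate 3 and the highest without polysomal sgLUC replicate 1. In the last group 199 of 427 genes were called higher and 4 lower. That count ran from 175 without total sgLUC replicate 3 to 230 without polysomal sgLUC replicate 3, and it was 157 (36.8%) with library totals, beside 5.41% of all tested genes. PTMA was higher by 1.17 in sgYBX1 than in sgLUC cells (edgeR, adjusted p = 0.000478), HMGN5 by 1.09 (adjusted p = 0.0027), EIF5B by 0.87 (adjusted p = 0.00182) and HSP90AA1 by 0.79 (adjusted p = 0.00199). Polysomal sgLUC libraries varied, with 256, 295, 574 and 430 CPM of HMGN5 and 2120, 2756, 4031 and 2794 CPM of EIF5B. PTMA, EIF5B and HSP90AA1 were seen before the purine groups were made, so their values are no support for these groups. The top difference among called protein-coding genes of at least 5 CPM, 1.32, was in KCNMB3, a potassium channel subunit gene with 43 purines that overlaps PIK3CA on the other strand.

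Of the classes, nucleolar ribosome biogenesis factors were called higher in the difference in 16 of 36 members and lower in 4, beside 9.84% and 6.89% of all tested genes, and DKC1 was higher by 0.70 (adjusted p = 0.00138). Their members over 2-fold higher on polysomes had a median of 50 purines in the richest 60 bases and those over 2-fold lower 47, beside 44 in genes of at least 5 CPM. Their count of lower genes ran from 2 without total sgLUC replicate 3 to 6 without polysomal sgYBX1 replicate 1. Mitosis and kinetochore genes were higher in 19 of 49 and lower in 4, a count that was 8 without polysomal sgLUC replicate 2. Oxidative phosphorylation genes were lower in 28 of 74 and higher in 1, and SDHD was lower by a difference of −0.60 (adjusted p = 0.0044). Without single libraries that count ran from 21 to 38, and with library totals it was 51, beside 21.5% of all tested genes. Mitochondrial ribosomal protein genes were lower in 21 of 77 and higher in 3, and the count of lower genes ran from 10 without total sgYBX1 replicate 4 to 29 without polysomal sgYBX1 replicate 1. Glycolytic genes were lower in 8 of 18, in 5 without total sgLUC replicate 2. Large-subunit ribosomal protein genes were called in 5 of 47, 2 higher and 3 lower, and small-subunit genes in 7 of 32, 1 higher and 6 lower. RPL30, the lowest large-subunit gene of the comparison, was lower by a difference of −0.95 (adjusted p = 0.00102).

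Single messages named by the study gave differences in both directions. MYC was lower by a difference of −0.56 (adjusted p = 0.0143) and IDH3B of −0.73 (adjusted p = 0.000352). IGF2BP2 was higher by 0.44 (adjusted p = 0.0119) and YBX1 by 0.33 (adjusted p = 0.0229). For BCL2 (0.23), MCL1 (−0.25), EIF4B (−0.17), EIF3L (−0.14), EEF2 (−0.04), RPS15 (−0.11) and RPS15A (−0.36) the difference did not pass the test, and for EIF3D it was under 0.01 in size. HOXA9 had the most negative called difference among protein-coding genes of at least 5 CPM, −1.39 (adjusted p = 0.00666), at polysomal levels under 1 CPM in sgYBX1 cells. The YBX1 call was lost without total sgLUC replicate 4 (adjusted p = 0.0525) and without total sgYBX1 replicate 1 (0.0519) or 3 (0.0564), and at library totals its difference was 0.13. Library totals also took the call of IGF2BP2 (0.25, adjusted p = 0.068), and limma voom took that of HOXA9 (−1.45, adjusted p = 0.166).

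**Figure D5:**
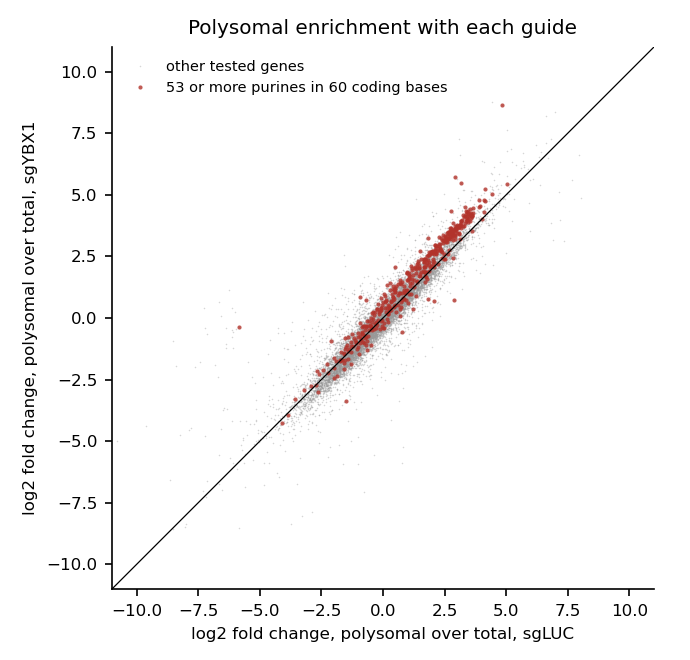
Log2 fold change of polysomal over total RNA with sgYBX1 (vertical) against sgLUC (horizontal); each point is a gene with an annotated coding sequence, red points have 53 or more purines in 60 coding bases, and the line marks equal values. The red points lie mostly above the line, with a median difference of 0.47, and the cloud of all genes follows the line.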

How the data were processed

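RNA-seq counts of 8 sgYBX1 and 8 sgLUC libraries were used. Raw counts per gene were deposited by the authors in 1 table, made per the submitters' processing notes with Trimmomatic 0.36.5, STAR 2.7.8a and featureCounts 2.0.1 on GRCh38; DESeq2 1.30.0 is also named. How multi-mapped reads and strand were counted is not given in the sources used here. Deposited tables of the authors' own fold changes and p-values were not used. Genes were named by Entrez number, because the symbol column of the count table matched its numbers for 11 genes.

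Of 18991 genes, 12517 passed edgeR's expression filter over all 16 libraries. Polysomal over total RNA was tested in the 8 sgYBX1 libraries, and the difference between guides in all 16, with TMM factors and edgeR 4.0.16 quasi-likelihood tests (R 4.3.3, two-sided, Benjamini-Hochberg over all tested genes, adjusted p under 0.05). Models were tested on simulated data. Alternatives used limma 3.58.1, DESeq2 1.42.0, other scalings and filters, and each library left out. Transcript features came from GENCODE (GRCh38) and starts from RefSeq, and figures were drawn with matplotlib 3.10.9.

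Members and lists were chosen with earlier results of these data known. Named genes were those named by the study, the 6 highest and 6 lowest protein-coding genes of at least 5 CPM, the highest and lowest member of at least 10 CPM in each list, the 4 highest and 4 lowest in the difference, and the longest and shortest coding sequence of at least 50 CPM. Some genes that this rule gave are not reported here. Purine groups were added after seeing the data.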

Additional observations from a re-analysis of the deposited data

Results flagged for a closer look

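In 7 of 184 groups of 4 values, 1 library lay far from the other 3, and chance alone gives about 1 in 20 groups. DDI2, at the low end of the comparison, had 0.411 CPM in polysomal replicate 1 and 0.128 to 0.160 CPM in the other polysomal libraries. KLF13, also at the low end, had 0.0316 CPM in polysomal replicate 1 and 0.502 to 0.575 CPM in the others. TPI1, a glycolytic enzyme gene, had 1524 CPM in polysomal replicate 1 and 1325 to 1353 CPM in the others. Among mitochondrial ribosomal protein genes, MRPL23 had 19.64 CPM in total replicate 3, against 21.3 to 21.4 CPM in the other total libraries, and MRPL49 had 45.7 CPM in total replicate 2, against 44.0 to 44.2 CPM. Polysomal replicate 2 had the most counts of its group, 55380275, and a TMM factor of 0.719.

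The polysomal enrichment differed between sgYBX1 and sgLUC cells for 33 of the 88 genes in the test of the difference itself, 19 higher and 14 lower in sgYBX1 cells (edgeR, adjusted p under 0.05). Of all 12517 tested genes 9.84% were called higher and 6.89% lower. The count of 33 is no result about the named genes, because the 4 highest and 4 lowest were chosen by this same call. Differences on the log2 scale, sgYBX1 minus sgLUC, were lower in HOXA9 (−1.39), SLC35F5 (−1.36), PPP1R3D (−1.35) and PTGER2 (−1.33), which were named for this. Among class members they were −0.95 in RPL30, −0.77 in PSMB7, −0.73 in IDH3B, −0.72 in BCL2L11, −0.60 in SDHD, −0.60 in LSM6, −0.56 in MYC, −0.53 in IARS, −0.51 in TCP1 and −0.44 in RPS29. Among genes named for their high difference they were 1.32 in KCNMB3, 1.19 in IFI16, 1.17 in PTMA and 1.09 in HMGN5. Other higher genes were EIF5B (0.87), HSP90AA1 (0.79), DKC1 (0.70), SRSF11 (0.68), PSMD1 (0.64), NAP1L1 (0.63), KNOP1 (0.59), SELENOS (0.59), SNRPB2 (0.57), MEF2C (0.54), IGF2BP2 (0.44), NFKBIA (0.37), YBX1 (0.33), DARS (0.32) and RPLP2 (0.28). Several of these calls did not hold in alternatives. DARS lost its call in 16, among them the replicate block (adjusted p = 0.066), and RPLP2 in 14, with the block at 0.0791. RPS29 lost it in 15 (adjusted p 0.0531 to 0.104), PTGER2 in 15 (0.0521 to 0.102), PPP1R3D in 7 (0.0521 to 0.238) and YBX1 in 5. MEF2C lost it without polysomal sgYBX1 replicate 3 (0.0533) or 4 (0.0563), and NFKBIA with library totals (0.245), and IGF2BP2 and HOXA9 lost it in 1 alternative each. IFI16, an interferon-induced DNA sensor gene, had 48 purines in its richest 60 coding bases, and HOXA9 had 43.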

How the results depend on the processing

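With library totals in place of TMM factors, 2726 genes were higher, 1668 higher by over 2-fold and 6524 lower by over 2-fold on polysomes in sgYBX1 cells, and the difference between guides was called higher for 677 and lower for 2694 genes. The same setting turned the fold changes of EIF3D (−0.73), IGF2BP2 (−0.19), RPL41 (−0.14), SPI1 (−0.71) and YBX1 (−0.74). Leaving out each library in turn gave 3446 to 3537 genes higher and 3637 to 3749 lower by over 2-fold, and in the difference 969 to 1598 higher and 542 to 1301 lower. Of the named genes, 12 lost their call in the difference in at least 1 alternative. Same-numbered polysomal and total sgYBX1 libraries deviated together little (r = −0.105 to 0.0575) and sgLUC ones unevenly (r = −0.171 to 0.472), and not every pair passed 0.1, so the numbers were not taken as pairing the samples. With a replicate block, 7098 genes were called by over 2-fold, 7036 of them among the 7154 called without it, and 1968 genes were called in the difference, 1844 of them among 2095. DESeq2 called 7148 and 2580 genes and limma voom 7145 and 2133. Purine groups among genes of at least 5 CPM kept medians of 1.88 with 53 to 60 and 0.76 with 49 to 52 purines. That mean was taken over both fractions, so polysomal values alone could reach it. Of the medians by coding length, 3′ UTR length, AUUUA elements and purines, those above 0 turned with library totals (−0.31, −0.33 and −0.53 in the shortest or element-free groups), except the one with 53 to 60 purines (0.65), and of ribosomal protein groups those without a start tract turned (−0.85 and −0.14), a check chosen after seeing the data. Scaling limits every moderate direction, and the wider spread of polysomal libraries limits the difference.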

Other observations

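Other transcript features were read in 8 groups of equal size over the 12436 genes with a coding sequence, as descriptions with no test and with TMM scaling, where library totals lower the median of all tested genes by 1.05. By GC of the coding sequence, the median fold change of polysomal over total RNA in sgYBX1 cells was 0.68 in the group of highest GC (63.6 to 79.8%) and −0.70 in the group of lowest GC, and in sgLUC cells these medians were 0.74 and −0.75. By lysine codons, the group with the most (8.97 to 31.2%) had a median of 0.82 and 456 of 1555 genes called higher in the difference. The group with the fewest had 0.48 and 38 of 1554, beside 9.84% of all tested genes. By the highest hydropathy over 19 residues, a measure that is high in proteins with membrane-spanning stretches, the lowest group had a median of 0.46 and the sixth −0.38. The group with the most adenines in 30 coding bases had 675 of 1555 genes called higher in the difference and 17 lower, beside 9.84% and 6.89%.

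By chromosome, the median was 0.87 for 673 genes of chromosome 19, −0.69 for chromosome 4 and −0.66 for chromosome 18. Genes over 8-fold higher on polysomes (439) had a median of 331 codons, 7.82% lysine codons and 1 AUUUA element, and genes over 8-fold lower (279) had 647 codons, 5.56% lysine codons and 5 AUUUA elements.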
